A study of Mus musculus with 2 samples.

Results

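Type I interferon-stimulated genes were followed across the cell types of the injured thalamus after intrathalamic injection of an antibody to CD9 or of a control antibody. The set consisted of 39 genes chosen by symbol out of 33696 genes in the count matrices, and all 39 were present in both matrices. The scRNA-seq compared 2 libraries of CD45+ thalamic cells, 1 for each antibody. Both came from C57B6/J mice (mostly females, by the methods) with cortical ablation injury (CAI), in which removal of cortex leads to degeneration of the thalamic neurons that project there. Control mice received normal rat IgG (control Ab), and the treated mice were given anti-CD9 (clone KMC8, anti-CD9 Ab), each at 1.0 μg/μl through an implanted cannula from day 7 to day 19 after injury. Tissue was collected on day 21. The methods describe pooling of cells from 4 mice for the thalamus before staining and sorting, without repeating this for the antibody groups. Injury, cannula and repeated injection were thus common to both groups, and no uninjured or uninjected library was part of this comparison. With 1 library per antibody, no test between antibodies was possible, and the effects of antibody, mice and library cannot be told apart. All intervals are 95% intervals for counting error only. Those of levels and ratios treat UMIs (unique molecular identifiers, 1 per captured RNA molecule) as independent. Those of shares of cells treat the cells of a library as independent, although these came from the same mice and the same preparation.

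Type I interferons (interferon-β, the interferon-α family and relatives) signal through a receptor made of *Ifnar1* and *Ifnar2* and the kinases *Jak1* and *Tyk2*. A transcription factor complex that includes *Stat2* and *Irf9* then enters the nucleus and binds the interferon-stimulated response element (ISRE), a pair of short purine-rich blocks in the promoters of the responding genes. The products of these genes block virus entry, translation and replication, sense foreign nucleic acid, or tune the response itself. In the brain, microglia that carry this program have been described in ageing, injury and degeneration, and infiltrating myeloid cells and lymphocytes also express it.

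The ISRE was searched for in the promoters of the members, because it does not depend on the values of these libraries. RefSeq windows on GRCm38.p6, from 250 bases before to 50 bases after the start site, were matched by symbol for 30 of the 39 members. *Parp9*, *Mx1*, *Zbp1*, *Oas2*, *Dhx58*, *Usp18*, *Rtp4*, *Parp14* and *Ifi27l2a* had no window. The motif GAAANNGAAA was searched on both strands, and overlapping matches were counted. It was found in windows of 16 of the 30 members (53.3%) and in those of 1079 of 27025 genes (3.99%). In 13 of the 16, at least 1 match lay before the start site. The sequences of 9 of these 13 are shown, as examples from the conjugation, IFIT, OAS, other antiviral and membrane groups, while *Oas3*, *Slfn5*, *Slfn8* and *Trim30a*, which also held a match there, are not shown. Each is on the strand of its gene, 5′ to 3′, with the matches in capitals. A run of TTTC blocks is the same motif read on the other strand. *Isg15* (chr4:156200863-156200908, minus strand) held 3 overlapping matches from base -78 to base -57 relative to the start site. *Ifit1* (chr19:34640773-34640825, plus strand) held 2 from -104 to -76. *Ifit3* (chr19:34583361-34583428, plus strand) and *Ifit3b* (chr19:34607757-34607824, plus strand) shared the same letters, from -156 to -113 in the former and from -188 to -145 in the latter. The matches lay from -120 to -111 in *Rsad2* (chr12:26456551-26456584, minus strand), from -20 to -5 in *Oas1a* (chr5:120907526-120907557, minus strand) and from -53 to -10 in *Ddx60* (chr8:61928022-61928086, plus strand). They lay from -130 to -115 in *Bst2* (chr8:71537575-71537614, minus strand) and from -46 to -37 in *Ifitm2* (chr7:140955986-140956019, minus strand).
Isg15: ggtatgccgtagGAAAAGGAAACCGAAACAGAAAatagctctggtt
Ifit1: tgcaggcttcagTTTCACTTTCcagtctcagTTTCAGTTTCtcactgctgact
Ifit3: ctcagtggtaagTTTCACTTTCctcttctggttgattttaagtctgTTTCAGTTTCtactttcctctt
Ifit3b: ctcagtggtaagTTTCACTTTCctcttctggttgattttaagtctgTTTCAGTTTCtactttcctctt
Rsad2: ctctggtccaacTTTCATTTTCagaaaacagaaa
Oas1a: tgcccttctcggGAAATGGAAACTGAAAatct
Ddx60: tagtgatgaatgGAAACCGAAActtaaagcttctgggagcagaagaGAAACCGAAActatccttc
Bst2: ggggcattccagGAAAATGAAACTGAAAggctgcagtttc
Ifitm2: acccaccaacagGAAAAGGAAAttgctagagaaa

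After quality control, 7467 cells after control Ab and 9162 cells after anti-CD9 Ab were kept, with a median of 1880 and of 1419 UMIs. The libraries shared 54 cell barcodes, 18 of them among kept cells. Cells were clustered without the members and without 62 further interferon pathway genes, and the 24 clusters were named from marker genes. The sort was on CD45, yet astrocyte-like and oligodendrocyte-like clusters were also found. Neutrophil-like cells numbered 65 after control Ab and 2621 after anti-CD9 Ab, and macrophage-like cells 271 and 1192. Microglia-like cells numbered 1868 and 853, T cell-like cells 2807 and 996, natural killer (NK) cell-like cells 412 and 163, and dendritic cell-like cells 107 and 226. The NK cell-like cluster also carried 10 of 12 T cell markers, *Cd8a* and *Cd8b1* among them. *S100a8* and *S100a9*, abundant neutrophil transcripts, had a summed level of 64.4 CPM (UMIs per 1000000 UMIs of the pooled cells) in microglia-like cells after control Ab and of 512 CPM after anti-CD9 Ab (0.0812% and 1.56% of their level in neutrophil-like cells of the same library). All 12 neutrophil markers were detected in microglia-like cells of both libraries, with summed levels of 512 and 1177 CPM. In macrophage-like cells, the 12 microglia markers, all detected in both libraries, summed to 7194 CPM after control Ab and to 965 CPM after anti-CD9 Ab, and 27.5% of the cluster were predicted doublets. In NK cell-like cells, the 12 T cell markers summed to 9734 CPM after control Ab and to 5906 CPM after anti-CD9 Ab. The 11 NK cell markers summed to 6202 and 9184 CPM there. The balance of these markers thus differed between the libraries, and its part in the NK cell-like ratios was not tested.

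Over all kept cells, the members held 68315 UMIs after control Ab (2739 CPM) and 213858 UMIs after anti-CD9 Ab (9436 CPM). The libraries also differed in which cells they were made of. Neutrophil-like cells held 1.52% of the member UMIs after control Ab and 39% after anti-CD9 Ab, and macrophage-like cells held 14.1% and 28.9%. Microglia-like cells held 29.6% and 6.28%, and T cell-like cells 28.6% and 5.99%. All further levels are therefore given within a cell type, as CPM of the UMIs summed over the cells of that type and library. CPM from 3′ tags is per captured molecule and carries no gene length. Where a pair of values is given for a type, the first is that after control Ab and the second that after anti-CD9 Ab, and the log2 ratio with its interval follows in parentheses.

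Within both libraries, neutrophil-like cells had the highest summed member level. It was 14287 CPM (13430 to 15184) after control Ab, from only 65 cells, and 25754 CPM (25580 to 25930) after anti-CD9 Ab. After control Ab, dendritic cell-like cells followed at 5340 CPM (5161 to 5523), then NK cell-like cells at 4627 CPM, T cell-like cells at 4018 CPM and macrophage-like cells at 3722 CPM. Microglia-like cells, at 2149 CPM (2119 to 2178), stood below all of these. Oligodendrocyte-like cells (1367 CPM), astrocyte-like cells (1142 CPM) and plasma cell-like cells (806 CPM) were lowest. After anti-CD9 Ab, the order below neutrophil-like cells was different. Macrophage-like cells were at 9374 CPM (9300 to 9448) and dendritic cell-like cells at 9032 CPM (8861 to 9206). Most of the difference between the antibodies in the dendritic cell-like sum lay in *Ifitm2* and *Ifitm3*. In dendritic cell-like cells the macrophage markers summed to 1392 CPM after control Ab and 3912 CPM after anti-CD9 Ab. The monocyte markers summed to 2414 and 4250 CPM, the T cell markers to 1419 and 199 CPM, and the dendritic cell markers to 1877 and 1498 CPM. The part of these markers in the difference was not tested. Oligodendrocyte-like cells were next at 5167 CPM (4753 to 5607). There a neutrophil-like profile scaled to their *S100a8* and *S100a9* level came to 57.1% of the member UMIs. T cell-like cells at 4563 CPM (4485 to 4643) and microglia-like cells at 4527 CPM (4450 to 4604) had overlapping intervals, and NK cell-like cells were at 4276 CPM (4068 to 4492). Of the 39 members, 30 were highest in neutrophil-like cells after control Ab and 31 after anti-CD9 Ab. *Ifi27l2a* was highest in T cell-like cells of both libraries, *Bst2* in macrophage-like cells of both, and *Ifi44* in dendritic cell-like cells of both.

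**Figure D1:**
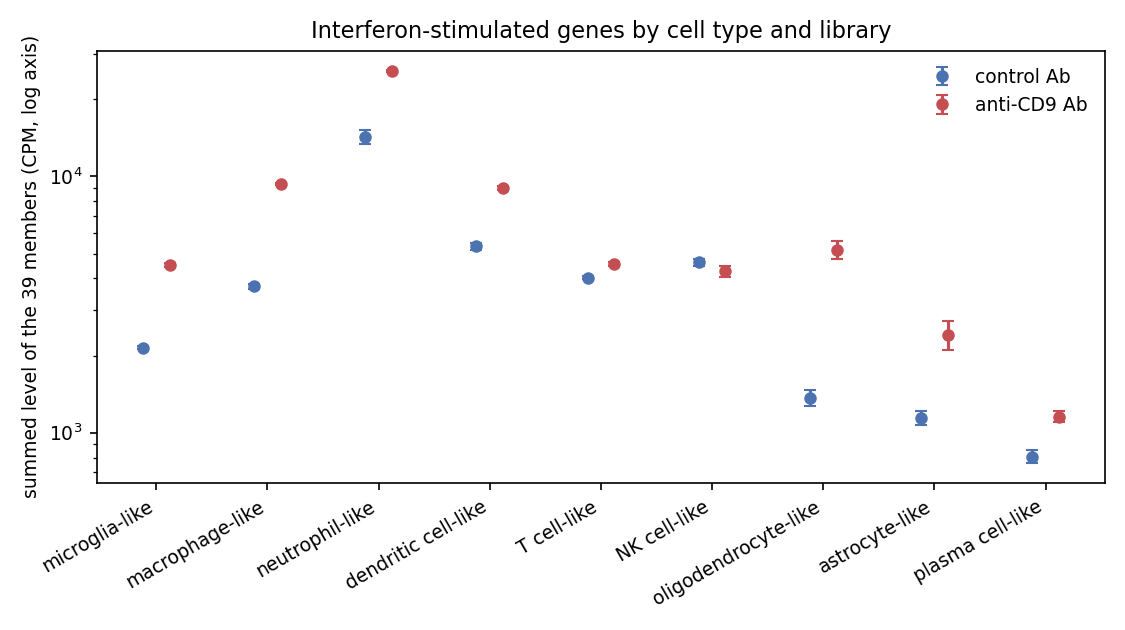
Summed level of the 39 members (CPM, log axis) in each cell type, after control Ab and anti-CD9 Ab side by side; points are libraries and bars are 95% counting intervals. Microglia-like cells go from 2149 to 4527 CPM and macrophage-like cells from 3722 to 9374 CPM, while NK cell-like cells are at 4627 and 4276 CPM.

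Microglia-like cells had the most uniform difference between the antibodies. All 39 members passed the minimum of 50 UMIs over both libraries in these cells. Their log2 ratios ran from 0.34 to 3.89, and the intervals of *Ifit3b* and *Ifi44* included 0. *Ifit3b* was lower (-0.28) after removal of the scaled neutrophil-like profile. The log2 ratio of the summed level (anti-CD9 Ab relative to control Ab) was 1.08 (1.04 to 1.11), and the median log2 ratio over the members was 1.02, where that of all 10906 genes at the same minimum was 0.01. In this type, 22 members were at least 2-fold higher and 0 at least 2-fold lower, where 3.4% of all genes were at least 2-fold higher and 4.02% at least 2-fold lower. The median lay close to the 2-fold limit, and the count of 22 depended on the processing. It was 15 without predicted doublets (37 members passed) and 15 when cells were called from marker UMIs. The count was 16 with 20 principal components, 18 at a mitochondrial limit of 5% and 21 without integration. In macrophage-like cells, all 39 members also passed and 38 were higher. There the median log2 ratio was 1.00 (all genes -0.14), with 20 members at least 2-fold higher and 0 lower, where 6.89% and 10.9% of all genes were. These macrophage-like values depended on which cells were counted, since the median was 0.41 and the count 9 when cells were called singly from marker UMIs (148 and 902 cells), and 0.73 for the median without predicted doublets. The 10 monocyte markers, all detected in both libraries, summed to 1085 and 5693 CPM in these cells, and their part in the result was not tested. Without integration the corresponding cluster matched the monocyte list best and stayed unnamed.

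In neutrophil-like cells, 37 members passed, 31 were higher, and 11 were at least 2-fold higher and 0 lower, with a median log2 ratio of 0.68 (all genes -0.14). The background was wide there, with 19.4% of all genes at least 2-fold higher and 20% at least 2-fold lower, and the control Ab side rested on 72584 UMIs. Of these cells the *Ccl4*- and *Cxcl2*-led cluster, with the highest member level, held 18.5% after control Ab (12 cells) and 41.3% after anti-CD9 Ab (1082 cells). Within the 3 neutrophil-like clusters the log2 ratio of the summed level was 0.47 (0.30 to 0.65) in that cluster, 0.38 (0.25 to 0.51) in the *Mmp9*- and *Cxcr2*-led cluster and 0.94 (0.77 to 1.11) in the *Retnlg*-led cluster, from 12 to 33 cells after control Ab, where it was 0.85 over all of them. The neutrophil-like ratios of single members below thus mix clusters whose shares differed between the libraries. The count of members at least 2-fold higher was 29 when cells were called from marker UMIs and 5 from the mean of per-cell CPM. In dendritic cell-like cells, 34 members passed, 27 were higher, and 4 were at least 2-fold higher and 0 lower, with a median of 0.22 (all genes -0.01), where 4.57% and 2.83% of all genes were. T cell-like cells had 37 members that passed, of which 21 were higher and 16 lower, with a median of 0.07 (all genes -0.09). Only 3 were at least 2-fold higher and 2 at least 2-fold lower there, where 3.58% and 2.58% of all genes were. In NK cell-like cells, 28 members passed, 8 were higher and 20 lower, with a median of -0.16 (all genes -0.01). There 3 were at least 2-fold higher and 1 at least 2-fold lower, where 3.34% and 2.94% of all genes were. The median of NK cell-like cells was 0.03 at a mitochondrial limit of 5% and 0.81 over 4 members with cells called from marker UMIs, so its direction was not settled.

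**Figure D2:**
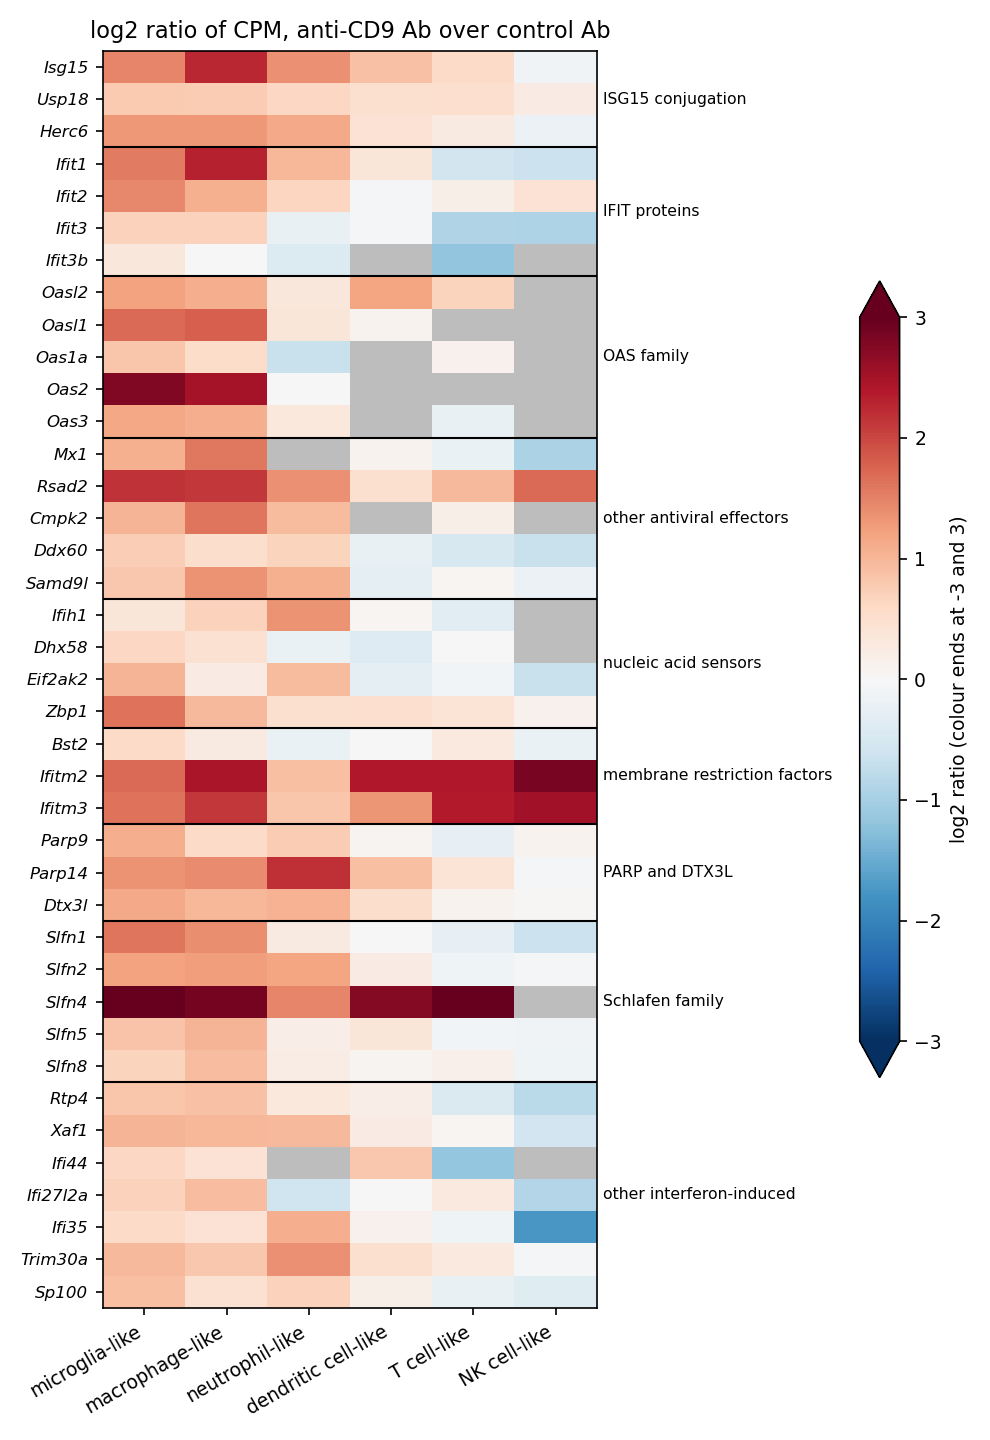
Log2 ratio of CPM (anti-CD9 Ab relative to control Ab) of each member, grouped by role in rows, in 6 cell types in columns; the color scale is centred on 0 and members under 50 UMIs in a type are left grey. The microglia-like and macrophage-like columns are red almost throughout (39 of 39 and 38 of 39 members higher), and the NK cell-like column holds 20 members that were lower.

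All 3 ISG15 conjugation genes had a higher CPM after anti-CD9 Ab in each of the microglia-, macrophage-, neutrophil- and dendritic cell-like types. *Isg15*, a ubiquitin-like protein that is attached to other proteins, was at 50.5 CPM in microglia-like cells after control Ab and at 140 CPM after anti-CD9 Ab (log2 ratio 1.47, 1.27 to 1.66). In macrophage-like cells *Isg15* was at 117 and 558 CPM (2.25, 2.08 to 2.43), and in neutrophil-like cells at 978 and 2552 CPM (1.38, 1.05 to 1.74). By neutrophil-like cluster, its ratio was 0.81 (0.25 to 1.44) in the *Ccl4*-led and 0.27 (-0.21 to 0.79) in the *Mmp9*-led one. It was 2.02 (1.14 to 3.08) in the *Retnlg*-led cluster. T cell-like cells had 156 and 234 CPM (0.58, 0.43 to 0.73), and NK cell-like cells 209 and 195 CPM (-0.10, -0.51 to 0.30). The gene was thus lowest in microglia-like cells among these types with either antibody. *Herc6*, the ligase that attaches ISG15 in mice, was at 101 and 249 CPM in microglia-like cells (log2 ratio 1.30). *Usp18*, which removes ISG15 and also dampens the receptor, was at 32.6 and 56.3 CPM in microglia-like cells (0.79, 0.51 to 1.06) and at 38.1 and 64.5 CPM in macrophage-like cells (0.76). The 3 genes together were at 184 and 445 CPM in microglia-like cells and at 232 and 811 CPM in macrophage-like cells.

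The IFIT proteins bind foreign RNA and hold back its translation, and *Ifit1*, *Ifit3* and *Ifit3b* differed in direction between cell types. *Ifit1* was at 18.1 CPM after control Ab and 53.6 CPM after anti-CD9 Ab in microglia-like cells (log2 ratio 1.57, 1.25 to 1.89). In macrophage-like cells *Ifit1* was at 28.1 and 140 CPM (2.31, 1.97 to 2.68). It was the other way round in T cell-like cells, at 119 and 80.8 CPM (-0.56, -0.79 to -0.34). *Ifit1* was thus higher in these myeloid cells and lower in T cell-like cells with the same antibody. *Ifit2* was at 33.1 and 90.4 CPM in microglia-like cells (1.45). It was not lower in T cell-like cells (27.9 and 31.7 CPM; 0.18, -0.22 to 0.58) or NK cell-like cells (41.7 and 56.8 CPM; 0.44, -0.40 to 1.25). Neutrophil-like cells had *Ifit3* at 496 and 427 CPM (-0.22, -0.69 to 0.30). *Ifit3* was at 37.3 and 59.7 CPM in microglia-like cells (0.68, 0.41 to 0.94), in T cell-like cells at 79.1 and 42 CPM (-0.91, -1.22 to -0.61), and at 180 and 94.6 CPM in NK cell-like cells (-0.93, -1.50 to -0.40). *Ifit3b*, the near copy of *Ifit3* with the identical promoter stretch above, had the smallest ratio in microglia-like cells (6.91 and 8.77 CPM; 0.34, -0.37 to 1.02) and was at 13.5 and 13.3 CPM in macrophage-like cells (-0.02). It was in T cell-like cells at 19.3 and 8.55 CPM (-1.18, -1.89 to -0.52) and at 276 and 208 CPM in neutrophil-like cells (-0.41, -1.05 to 0.31). Reads shared by *Ifit3* and *Ifit3b* cannot be assigned with certainty, so the split between them is uncertain. As a group, the 4 IFIT genes summed to 95.4 and 212 CPM in microglia-like cells and to 245 and 163 CPM in T cell-like cells.

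The OAS family makes the adenosine oligomers that activate RNase L, and *Oasl1* and *Oasl2* are relatives of these enzymes. *Oas2* was at 4.47 CPM after control Ab and 30.7 CPM after anti-CD9 Ab in microglia-like cells (log2 ratio 2.78, 2.24 to 3.34) and at 6.16 and 34.5 CPM in macrophage-like cells (2.49, 1.76 to 3.32). Its counts were low, 42 and 91 UMIs in microglia-like cells and 16 and 228 UMIs in macrophage-like cells. *Oasl2* was the most abundant of the family in microglia-like cells, at 73.6 and 170 CPM (1.21, 1.04 to 1.38). It was also at 90.3 and 206 CPM in dendritic cell-like cells (1.19, 0.77 to 1.63). *Oasl1* was at 11.1 and 36.1 CPM (1.71), *Oas3* at 5.42 and 12.1 CPM (1.16) and *Oas1a* at 19.6 and 35.1 CPM (0.84) in microglia-like cells. In neutrophil-like cells, 4 of 5 OAS genes were higher but 0 by 2-fold, where 19.4% of all genes were at least 2-fold higher. There *Oas1a* was at 55.1 and 34.6 CPM from 4 and 112 UMIs, with an interval that ran from -2.07 to 1.23. *Oas1a* belongs to a cluster of close copies, so its reads may be split among them.

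Of the other antiviral effectors, *Rsad2* had the largest difference in microglia-like cells. *Rsad2* (viperin) makes a nucleotide analog that ends viral RNA chains. It was at 20.4 CPM after control Ab and 92.1 CPM after anti-CD9 Ab in microglia-like cells (log2 ratio 2.17, 1.90 to 2.45), at 46.2 and 201 CPM in macrophage-like cells (2.12), and at 827 and 2152 CPM in neutrophil-like cells (1.38, 1.01 to 1.77). By neutrophil-like cluster, the *Rsad2* ratio was 0.12 (-0.36 to 0.64) in the *Ccl4*-led and 0.28 (-0.44 to 1.10) in the *Mmp9*-led one. In the *Retnlg*-led cluster *Rsad2* was at 424 and 1991 CPM (2.23, 1.30 to 3.36), from 9 UMIs after control Ab. Unlike most members, it was also higher in NK cell-like cells, at 29.3 and 94.6 CPM (1.69, 0.92 to 2.48), from 26 and 35 UMIs. The 12 neutrophil markers summed to 32.7 and 465 CPM in those cells. Without predicted doublets, 1 member was at least 2-fold higher there, of 24 that passed. *Cmpk2*, the neighbouring kinase gene that supplies the substrate of *Rsad2*, was at 4.15 and 8.43 CPM in microglia-like cells (1.02). *Mx1*, a GTPase gene, was at 21.2 and 44.2 CPM in microglia-like cells (1.06) and at 24.7 and 74.4 CPM in macrophage-like cells (1.59). It was nearly absent from neutrophil-like cells, with 0 UMIs after control Ab and 4 after anti-CD9 Ab, where most members were highest. *Mx1* in NK cell-like cells was at 67.7 and 35.1 CPM (-0.95, -1.94 to -0.06). *Ddx60*, a helicase, was at 76.6 and 128 CPM in microglia-like cells (0.74) and in T cell-like cells at 94.7 and 68 CPM (-0.48, -0.73 to -0.23). *Samd9l*, a repressor of translation, was at 31.2 and 78.9 CPM in macrophage-like cells (1.34) and at 103 and 85.2 CPM in dendritic cell-like cells (-0.27, -0.74 to 0.20).

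The nucleic acid sensors among the members had modest ratios in macrophage-like cells, where 0 of 4 reached 2-fold, and 2 of 4 reached it in microglia-like cells. Of all genes, 6.89% were at least 2-fold higher in macrophage-like cells and 3.4% in microglia-like cells. *Zbp1*, a sensor of Z-form nucleic acid, was at 33 and 102 CPM in microglia-like cells after control Ab and anti-CD9 Ab, respectively (log2 ratio 1.63, 1.40 to 1.87), and at 109 and 215 CPM in macrophage-like cells (0.98). *Eif2ak2* (PKR), a kinase that stops translation on double-stranded RNA, was at 93.6 and 188 CPM in microglia-like cells (1.01) and at 79.3 and 93.8 CPM in macrophage-like cells (0.24, 0.01 to 0.48), and it was at 101 and 84.4 CPM in dendritic cell-like cells (-0.27). After anti-CD9 Ab it was highest in microglia-like cells among the types compared. Its ratio in microglia-like cells was 0.99 after removal of the scaled neutrophil-like profile. *Ifih1* (MDA5) was at 62.6 and 80.9 CPM in microglia-like cells (0.37, 0.15 to 0.59), among the smallest ratios there, and at 138 and 349 CPM in neutrophil-like cells (1.34, 0.46 to 2.40). *Dhx58* (LGP2) was at 20.8 and 31.7 CPM in microglia-like cells (0.61) and at 47.5 and 36.7 CPM in dendritic cell-like cells (-0.38, -1.08 to 0.35).

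The membrane factors were among the most abundant members, and *Ifitm2* and *Ifitm3* were at least 2-fold higher after anti-CD9 Ab in 5 of the 6 types. *Ifitm3*, which blocks fusion of virus with endosomal membranes, was at 133 CPM after control Ab and 409 CPM after anti-CD9 Ab in microglia-like cells (log2 ratio 1.62, 1.50 to 1.73). It was at 553 and 2406 CPM in macrophage-like cells (2.12, 2.04 to 2.20), at 1405 and 2496 CPM in neutrophil-like cells (0.83, 0.55 to 1.12), and at 1098 and 2762 CPM in dendritic cell-like cells (1.33). T cell-like cells had *Ifitm3* at 62 and 325 CPM (2.39, 2.20 to 2.58) and NK cell-like cells at 62 and 354 CPM (2.51, 2.05 to 2.99). It was more than 2-fold higher after anti-CD9 Ab in every one of these types but neutrophil-like cells. Its close relative *Ifitm2* was at 33.8 and 110 CPM in microglia-like cells (1.70), at 166 and 913 CPM in macrophage-like cells (2.46), at 279 and 1475 CPM in dendritic cell-like cells (2.40), in T cell-like cells at 22.2 and 118 CPM (2.41) and at 18 and 130 CPM in NK cell-like cells (2.85, 2.00 to 3.76). *Ifitm2* in neutrophil-like cells was at 1295 and 2433 CPM (0.91, 0.62 to 1.22). *Bst2* (tetherin), which holds budding virus at the surface, differed less. It was among the 3 most abundant members in microglia-like and macrophage-like cells, at 256 and 383 CPM (0.58, 0.48 to 0.68) and at 542 and 657 CPM (0.28, 0.19 to 0.37), and it was at 398 and 400 CPM in dendritic cell-like cells (0.01, -0.22 to 0.23). T cell-like cells had *Bst2* at 267 and 326 CPM (0.29, 0.16 to 0.41) and NK cell-like cells at 329 and 286 CPM (-0.20, -0.54 to 0.12). In macrophage-like cells, where the 3 genes summed to 1261 and 3976 CPM, nearly the whole difference lay in *Ifitm2* and *Ifitm3*.

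*Parp9*, *Parp14* and *Dtx3l* encode an ADP-ribosyltransferase pair and the ubiquitin ligase that binds *Parp9*. All 3 reached 2-fold in microglia-like cells, where 3.4% of all genes were at least 2-fold higher. *Parp14* was at 99.7 and 253 CPM there after control Ab and anti-CD9 Ab, respectively (log2 ratio 1.34, 1.20 to 1.48), *Parp9* at 94.8 and 202 CPM (1.09), and *Dtx3l* at 40.5 and 88.7 CPM (1.13). In neutrophil-like cells *Parp14* had the largest ratio of any member, with 220 and 996 CPM (2.18, 1.47 to 2.98), though the first value rested on 16 UMIs. The 3 genes summed to 373 and 403 CPM in T cell-like cells.

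The Schlafen family, regulators of translation and of leukocyte growth, held the member with the largest ratio in microglia-like cells. *Slfn4*, known mainly from myeloid cells, was at 3.93 CPM after control Ab (37 UMIs) and at 58.3 CPM after anti-CD9 Ab (173 UMIs), and the log2 ratio was 3.89 (3.37 to 4.44). It was at 19.3 and 142 CPM in macrophage-like cells (2.88, 2.47 to 3.32) and at 730 and 2010 CPM in neutrophil-like cells (1.46, 1.07 to 1.88), and dendritic cell-like cells had 4 and 50 UMIs (2.75, 1.30 to 4.68). Since its level in neutrophil-like cells was far above that of the other types compared, its values elsewhere were set beside the neutrophil-like profile of the same library, scaled to the *S100a8* and *S100a9* level of each type. Among T cell-like cells, where *Slfn4* was at 1.03 and 36 CPM (5 and 101 UMIs), the scaled profile alone came to 35.4 CPM, so that 0.607 CPM was left. In NK cell-like cells it was at 0 and 23 UMIs, at least 18.4-fold higher against a floor of 3 counts, and the scaled profile came to 19.6 of 62.2 CPM. In microglia-like cells the scaled profile came to 31.4 of the 58.3 CPM, and after its removal *Slfn4* was at 3.34 and 26.9 CPM (log2 ratio 3.01). A *Slfn4* UMI was found in 0.165% (0.034 to 0.48) of microglia-like cells after control Ab and in 2.77% (1.76 to 4.12) after anti-CD9 Ab, after each cell was thinned to 1000 UMIs. The same shares in T cell-like cells were 0.081% and 2.17% (1.33 to 3.33), at 1000 UMIs per cell in both types, and the intervals of both types after anti-CD9 Ab overlap. Without thinning, the shares were 0.749% and 6.57% in microglia-like cells and 0.0713% and 4.32% in T cell-like cells. The UMIs were unevenly spread, with up to 16 of the 173 in a single microglia-like cell, so the counting interval of *Slfn4* is too narrow. *Slfn2* was at 58.7 and 135 CPM (1.20), *Slfn1* at 8.72 and 26.6 CPM (1.61), *Slfn5* at 42.9 and 77.2 CPM (0.85) and *Slfn8* at 53.3 and 84.7 CPM (0.67) in microglia-like cells. *Slfn2* in T cell-like cells was at 343 and 312 CPM (-0.14, -0.26 to -0.02), and *Slfn1* at 172 and 144 CPM (-0.25). The Schlafen genes are close relatives in 1 cluster, and the assignment of shared reads between them is uncertain.

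The remaining 7 members have mixed or less defined roles. Of these, 1 of 7 was at least 2-fold higher in microglia-like cells (3.4% of all genes) and 0 of 7 in macrophage-like cells (6.89% of all genes). That 1 was *Xaf1*, a pro-apoptotic factor, at 31.6 and 63.4 CPM in microglia-like cells after control Ab and anti-CD9 Ab, respectively (log2 ratio 1.01, 0.73 to 1.27). After removal of the scaled neutrophil-like profile its ratio was 0.96. *Trim30a*, a negative regulator of inflammatory signaling, was at 193 and 382 CPM in microglia-like cells (0.98, 0.88 to 1.09) and at 482 and 1246 CPM in neutrophil-like cells (1.37). *Ifi27l2a* was at 125 and 202 CPM in microglia-like cells (0.70), in T cell-like cells at 461 and 564 CPM (0.29, 0.20 to 0.38), at 441 and 290 CPM in neutrophil-like cells (-0.60, -1.11 to -0.05) and at 359 and 195 CPM in NK cell-like cells (-0.88, -1.27 to -0.51). Its pooled level was thus higher in microglia-like and T cell-like cells and lower in neutrophil-like and NK cell-like cells. Of the neutrophil-like clusters, the *Retnlg*-led one was lower (-1.61, -2.46 to -0.62). The *Ifi27l2a* ratio was 0.04 (-0.62 to 0.78) in the *Mmp9*-led and 1.25 (-1.24 to 6.56) in the *Ccl4*-led cluster. The NK cell-like cluster also held T cell markers, and their part in its value was not tested. *Sp100*, a nuclear body protein, was at 107 and 201 CPM in microglia-like cells (0.91), in T cell-like cells at 437 and 373 CPM (-0.23, -0.34 to -0.12) and at 634 and 492 CPM in NK cell-like cells (-0.37, -0.62 to -0.12). *Ifi35* was at 50 and 74.2 CPM in microglia-like cells (0.57) and at 117 and 35.1 CPM in NK cell-like cells (-1.74, -2.70 to -0.90), the largest difference downward of any member in any of the 6 types. *Rtp4* was at 67.6 and 121 CPM in microglia-like cells (0.84) and in T cell-like cells at 141 and 105 CPM (-0.43). *Ifi44* was at 7.02 and 10.8 CPM in microglia-like cells (0.62, -0.04 to 1.25), in T cell-like cells at 10.3 and 4.63 CPM (-1.15), and at 0 and 6 UMIs in neutrophil-like cells.

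**Figure D3:**
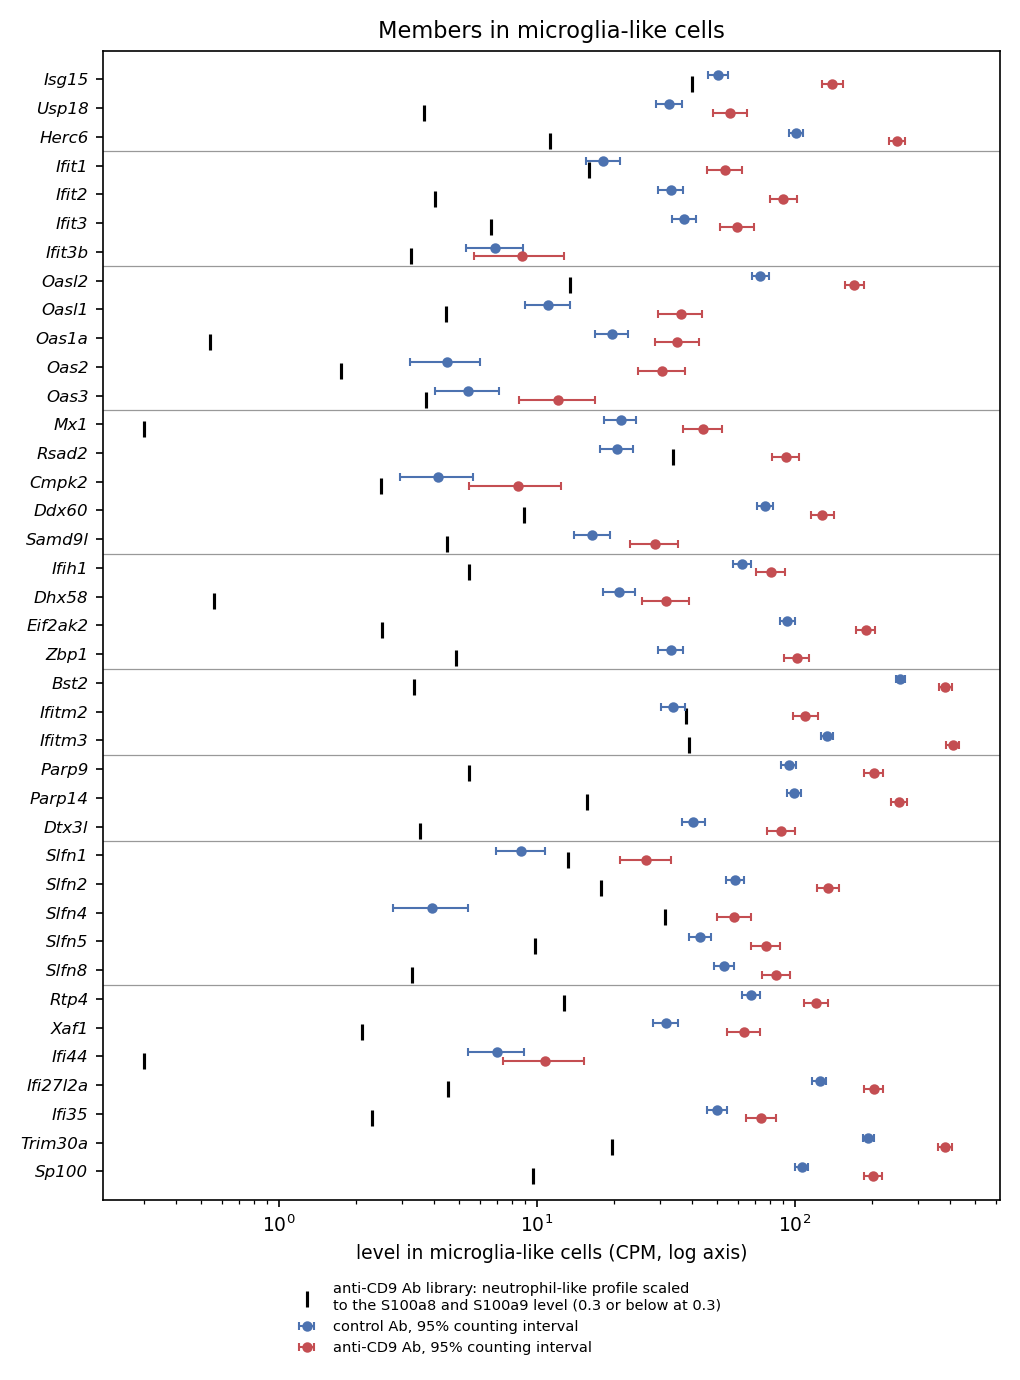
Level of each of the 39 members in microglia-like cells (CPM, log axis) after control Ab and anti-CD9 Ab, ordered by role, with 95% counting intervals as bars; black ticks give the neutrophil-like profile of the anti-CD9 Ab library scaled to the *S100a8* and *S100a9* level. The anti-CD9 Ab point lies to the right of the control Ab point for all 39 members, by the most for *Slfn4* (3.93 and 58.3 CPM) and by the least for *Ifit3b* (6.91 and 8.77 CPM).

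The neutrophil transcripts in microglia-like cells were also set against all members. The neutrophil-like profile of the same library, scaled to the *S100a8* and *S100a9* level of microglia-like cells, came to 403 CPM of member UMIs after anti-CD9 Ab (8.89% of the 4527 CPM) and to 0.54% after control Ab. After it was taken off each member, the median log2 ratio in microglia-like cells was 0.91 and 17 members were at least 2-fold higher. *Ifitm3* was then at 132 and 370 CPM (1.49), *Isg15* at 49.7 and 99.7 CPM (1.00), and *Rsad2* at 19.7 and 58.4 CPM (1.57). *Ifit3b* went to the other side, at 6.69 and 5.52 CPM (-0.28). For T cell-like cells the scaled profile was 453 CPM (9.93% of member UMIs after anti-CD9 Ab), and the median went from 0.07 to -0.13. *Ifitm3* in T cell-like cells was still at 59.4 and 281 CPM (2.24), while *Rsad2* there went to 24.1 and 12.7 CPM (-0.92). NK cell-like cells then had *Rsad2* at 29.2 and 73.7 CPM (1.33) and *Ifitm3* at 61.9 and 330 CPM (2.41).

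In the integrated libraries, the microglia-like cells formed 2 clusters that differed in the size of the ratio, and the order of their ratios was turned without integration. The first, led by *P2ry12* and *Siglech*, genes of homeostatic microglia, had 936 cells after control Ab and 487 after anti-CD9 Ab. The second, led by *Lpl*, *Cst7* and *Spp1*, genes of the disease-associated state, had 932 and 366 cells. After control Ab, the summed member level was lower in the *P2ry12*-led cluster (1719 CPM, 1679 to 1761) than in the *Lpl*-led cluster (2455 CPM, 2413 to 2496). After anti-CD9 Ab, the order was turned, at 4807 CPM (4704 to 4913) and 4147 CPM (4035 to 4261). The log2 ratio of the sum was 1.48 (1.44 to 1.53) in the *P2ry12*-led and 0.76 (0.71 to 0.80) in the *Lpl*-led cluster. Of 35 members that passed in the *P2ry12*-led cluster, 30 were at least 2-fold higher, where 3.4% of all genes were, and of 35 in the *Lpl*-led cluster 7 were, where 2.99% of all genes were. A total of 33 members passed in both, and 32 of these had the larger log2 ratio in the *P2ry12*-led cluster, 21 of them with an interval wholly above that of the *Lpl*-led cluster and 0 wholly below. *Rsad2* was at 11.2 and 126 CPM in the *P2ry12*-led cluster (3.48, 3.01 to 3.98) and at 27 and 46.8 CPM in the *Lpl*-led cluster (0.80, 0.34 to 1.24). *Isg15* was at 28.1 and 158 CPM in the former (2.49) and at 66.5 and 115 CPM in the latter (0.79). *Parp14* had much the same ratio in both, at 106 and 271 CPM (1.35) and at 95.1 and 229 CPM (1.27). The neutrophil transcripts differed between the clusters as well. The 12 neutrophil markers summed to 603 and 1417 CPM in the *P2ry12*-led cluster and to 447 and 851 CPM in the *Lpl*-led cluster (11 or 12 of 12 detected in each), and the scaled neutrophil-like profile came to 10.4% and 6.5% of the member UMIs after anti-CD9 Ab. After its removal, 31 of the 33 members still had the larger log2 ratio in the *P2ry12*-led cluster, with medians of 1.21 and 0.55 over the 33. *Rsad2* was then at 10.6 and 83.7 CPM in the *P2ry12*-led cluster (2.98) and at 26.3 and 24.3 CPM in the *Lpl*-led cluster (-0.11). Without integration, the clusters separated largely by library. The *P2ry12*-led cluster then had 887 and 71 cells and was at 1588 and 1816 CPM (log2 ratio 0.19), and the *Lpl*-led cluster had 1002 and 98 cells and was at 2495 and 3609 CPM (0.53). Another cluster, led by *Ccl12* and *Cxcl13*, had 140 and 667 cells and was at 3096 and 5074 CPM (0.71). The larger ratio of the *P2ry12*-led cluster thus depended on the integrated clustering. At a mitochondrial limit of 5% the ratios were 1.21 and 0.97, and the order of the levels after anti-CD9 Ab was not turned, at 3979 CPM in the *P2ry12*-led and 4846 CPM in the *Lpl*-led cluster. These alternatives were chosen after seeing the data.

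**Figure D4:**
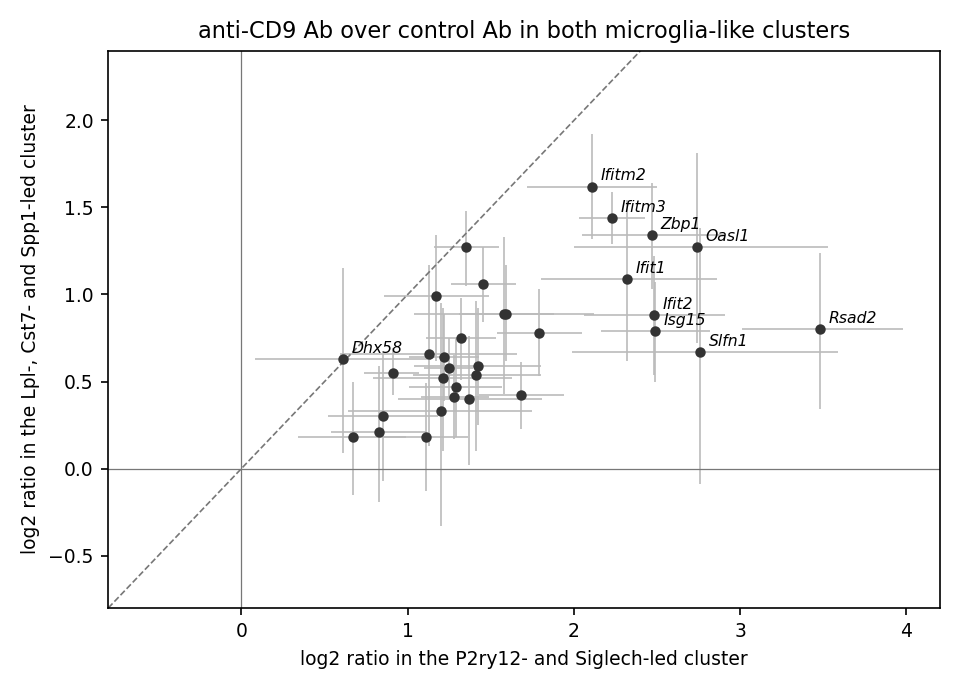
Log2 ratio (anti-CD9 Ab relative to control Ab) of the members in the *P2ry12*- and *Siglech*-led microglia-like cluster of the integrated libraries (x axis) and the *Lpl*-, *Cst7*- and *Spp1*-led cluster (y axis), with 95% counting intervals; the dashed diagonal marks equal ratios. Of the 33 members plotted, 32 lie below the diagonal, and *Rsad2* lies farthest to the right (3.48 and 0.80).

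Counted cell by cell, the member UMIs of microglia-like cells were spread over most cells in both libraries. After each cell was thinned to 1000 UMIs, the median microglia-like cell held 1 member UMI after control Ab and 3 after anti-CD9 Ab. The share of cells with at least 5 member UMIs was 8.67% (7.42 to 10.1) of 1822 cells after control Ab and 36% (32.7 to 39.3) of 831 cells after anti-CD9 Ab, with 46 and 22 shallower cells left out. Without thinning these shares were 52.1% and 80.5%, where the depth was 3016 and 3322 UMIs (median per cell). In plasma cell-like cells, where the members were lowest, the thinned shares were 1.33% and 3.57%, with a median depth of 9508 and 10480 UMIs before thinning (unthinned shares 53.3% and 78.1%). The 10% of microglia-like cells with the most member UMIs held 36.5% of them after control Ab and 31.2% after anti-CD9 Ab. The mean number of different members detected per thinned cell was 1.73 and 3.52. In the *P2ry12*-led cluster the share with at least 5 was 4.89% (3.59 to 6.49) and 37.9% (33.6 to 42.4), and in the *Lpl*-led cluster 12.5% (10.4 to 14.9) and 33.2% (28.3 to 38.5).

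In macrophage-like cells the thinned share with at least 5 member UMIs was 36.4% of 269 cells after control Ab and 69.6% of 1190 cells after anti-CD9 Ab, with medians of 4 and 8 member UMIs. Unthinned, nearly every macrophage-like cell held 5 or more (97% and 98.7%). Neutrophil-like cells had 45.5% (24.4 to 67.8) of 22 cells after control Ab and 93.5% (92.2 to 94.6) of 1781 cells after anti-CD9 Ab (unthinned 78.5% and 93.2%), and thinning left out 43 and 840 cells. Dendritic cell-like cells had 52.8% (42.9 to 62.6) and 77.5% (71.3 to 82.9), and unthinned 97.2% and 95.6%. The part of *Ifitm2* and *Ifitm3* in these shares was not tested. For T cell-like cells the shares were 30.1% and 38.2% (unthinned 49.4% and 69.5%), with a median of 3 member UMIs in both libraries. At 2000 UMIs per cell this difference turned round, from 8.14 to -4.04 percentage points, so no direction was read from it. In NK cell-like cells the shares were 38.2% (33.4 to 43.3) of 387 cells and 25.2% (18.3 to 33.1) of 143 cells, and unthinned 65.3% and 58.3%. The NK cell-like difference of -13.1 percentage points was -2.83 at a mitochondrial limit of 5% and 2.89 with cells called from marker UMIs, so no direction was read from it either.

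**Figure D5:**
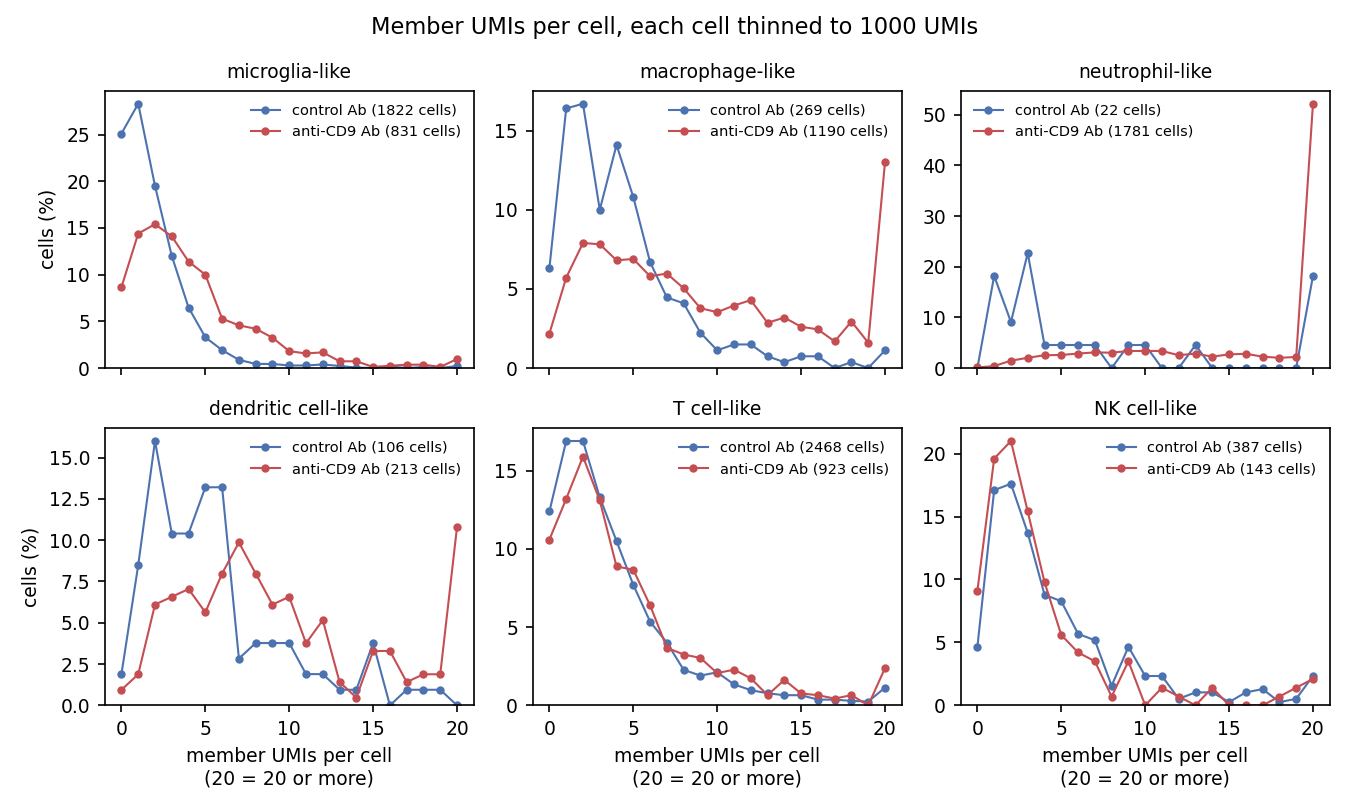
Share of cells (%, y axis) by the number of member UMIs per cell (x axis, the last point is 20 or more) after thinning to 1000 UMIs per cell, with 1 panel per cell type and 1 line per library. The microglia-like line lies farther to the right after anti-CD9 Ab (median 1 and 3 member UMIs), the neutrophil-like line by the most (3.5 and 21), and the T cell-like and NK cell-like medians are 3 in both libraries.

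The genes upstream of the members were examined in the same way. Transcripts of the type I interferons themselves were scarce, with 26 UMIs after control Ab and 9 after anti-CD9 Ab for 16 ligand genes over all kept cells. Of these, *Ifnb1* (interferon-β) held 25 and 4. In microglia-like cells *Ifnb1* had 24 and 1 UMIs, but all 24 were in 1 cell of 1868, so that no difference between the antibodies can be read from them. All listed *Ifna* genes, *Ifnab* and *Ifne* had 0 UMIs in both libraries. Type II interferon (*Ifng*) was at 84 CPM after control Ab and 161 CPM after anti-CD9 Ab in T cell-like cells (log2 ratio 0.94, 0.74 to 1.13) and at 79 and 143 CPM in NK cell-like cells (0.86). A single T cell-like cell held 110 of the 451 *Ifng* UMIs after anti-CD9 Ab, and a single NK cell-like cell held 22 of 53. The share of NK cell-like cells with an *Ifng* UMI was 13.6% after control Ab and 12.3% after anti-CD9 Ab (median depth 1940 and 2051 UMIs). An *Ifng* UMI was found in 9.23% and 14.4% of T cell-like cells (median depth 1555 and 2308 UMIs), in 0.696% of microglia-like cells after control Ab, and in 0 of 853 after anti-CD9 Ab (3016 and 3322 UMIs). A count of 0 allows up to 0.352% of cells with an *Ifng* UMI at this depth, and does not limit the share of cells that express the gene. These were 15 and 0 UMIs in microglia-like cells, where the 12 T cell markers summed to 186 and 36.1 CPM.

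Of the receptor and signal genes, *Stat2*, a part of the complex that binds the ISRE, was at 62.4 and 171 CPM in microglia-like cells after control Ab and anti-CD9 Ab, respectively (log2 ratio 1.46, 1.28 to 1.63). Its partner *Irf9* was at 36.8 and 41.1 CPM (0.16, -0.15 to 0.46). Of the receptor chains, *Ifnar1* was at 51.8 and 84.7 CPM (0.71, 0.48 to 0.93) and *Ifnar2* at 419 and 399 CPM (-0.07, -0.16 to 0.03). *Stat2* thus differed more than its partner and than either receptor chain in microglia-like cells. In macrophage-like cells *Stat2* was at 80.1 and 110 CPM (0.46) and *Ifnar1* at 61.2 and 107 CPM (0.80).

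Among the interferon regulatory factors, *Irf7*, which drives the later waves of interferon, was at 25.9 and 37.8 CPM in microglia-like cells (log2 ratio 0.54, 0.21 to 0.87) and at 118 and 227 CPM in macrophage-like cells (0.94). *Irf1*, also induced by type II interferon, was at 89.8 and 213 CPM in microglia-like cells (1.25). It was the 1 of 6 genes that reached 2-fold there, where 3.4% of all genes were at least 2-fold higher. *Irf5* was at 138 and 107 CPM (-0.38). Of 15 sensing genes, 12 passed in microglia-like cells and *Ikbke* and *Samhd1* (112 and 268 CPM, 1.26) reached 2-fold, with a median of 0.48. *Ikbke*, a kinase that activates *Irf3* and *Irf7*, had the highest ratio of the list, at 17.7 and 77.9 CPM (2.14, 1.85 to 2.44), and the adaptor *Ticam1* had the lowest, at 13.6 and 13.5 CPM (-0.01). Of the brakes, *Socs3* was at 27.3 and 157 CPM in microglia-like cells (2.52, 2.30 to 2.75) and at 28.9 and 308 CPM in macrophage-like cells (3.42, 3.08 to 3.77). *Socs3* is also induced by cytokines of the interleukin-6 family. The phosphatase gene *Ptpn6* was at 166 CPM with both antibodies in microglia-like cells (0.01).

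Type II interferon, its receptor and its known targets were also listed. Of 11 genes that passed in microglia-like cells, 8 were at least 2-fold higher, where 3.4% of all genes were. Their median log2 ratio was 1.67, where that of the members was 1.02, and the difference between these medians was not tested. *Gbp5*, a guanylate-binding protein, was at 15.2 and 127 CPM there (3.06, 2.78 to 3.35), and the receptor gene *Ifngr1* had the lowest ratio of the list, at 427 and 403 CPM (-0.08, -0.18 to 0.01). In macrophage-like cells 7 of 11 were at least 2-fold higher, where 6.89% of all genes were, with a median of 1.17. Of 11 in T cell-like cells, 0 were, where 3.58% of all genes were, with a median of 0.12. Many of the 39 members also respond to type II interferon, and these data do not tell which interferon, if either, acted on the cells.

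The types with fewer cells gave values for few members. In oligodendrocyte-like cells 9 members passed and their summed level was 1367 CPM after control Ab and 5167 CPM after anti-CD9 Ab, but *S100a8* and *S100a9* were at 11.5% of their neutrophil-like level there and the scaled neutrophil-like profile came to 57.1% of the member UMIs. In astrocyte-like cells 8 passed, with summed levels of 1142 and 2397 CPM, and the scaled profile was 27.1%. In plasma cell-like cells 13 passed, with 806 and 1155 CPM and a median log2 ratio of 0.18. B cell-like and mural cell-like clusters had under 50 cells in at least 1 library and were not compared.

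Within the broader types, single clusters also differed in member level. Among T cell-like cells, the cluster led by *Ctla4* and *Themis* was at 4904 CPM (4821 to 4989) after control Ab and 5904 CPM (5765 to 6045) after anti-CD9 Ab, and the cluster led by *Trdc* and *Il17a*, genes of γδ T cells, was at 2867 CPM (2794 to 2942) and 3908 CPM (3789 to 4031). The cycling T cell-like cluster was at 3872 CPM (3598 to 4161) and 3126 CPM (2988 to 3269), the only one of the 3 with a lower level, from 38 and 89 cells. Among neutrophil-like cells after anti-CD9 Ab, the cluster led by *Ccl4*, *Cxcl2* and *Ccl3* reached 32700 CPM (32409 to 32994), and that led by *Mmp9* and *Cxcr2* was at 15846 CPM (15601 to 16094). An unnamed cluster led by *Ccr7* and *Fscn1*, genes of migratory dendritic cells, was at 4132 CPM (3651 to 4658) from 18 cells and at 9823 CPM (9552 to 10099) from 164 cells. An unnamed cluster led by *Arg1* and *Hmox1*, with 27 and 1232 cells, was at 2588 CPM (2164 to 3071) and 6640 CPM (6504 to 6778). An unnamed cluster led by *Gdf15* and *Hilpda*, almost wholly from the anti-CD9 Ab library (1 and 869 cells), was at 8641 CPM after anti-CD9 Ab.

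The motif of the promoters did not sort the members by the size of their difference. In microglia-like cells the 16 members with a match had a median log2 ratio of 0.92 (0.34 for *Ifit3b* to 2.17 for *Rsad2*), and the 14 with a window but no match had a median of 1.17 (0.57 for *Ifi35* to 3.89 for *Slfn4*). In macrophage-like cells the medians were 0.86 and 1.18. A missing match says only that these letters are not in this window.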

How the data were processed

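Single-cell suspensions of the injured thalamus were sorted for live CD45+ cells, and libraries were made with the 10x Genomics Single Cell 3′ v3.1 chemistry. The deposited matrices hold raw UMI counts per gene and cell, made by the authors. The file header and the submitters' processing notes name Cell Ranger 8.0.0, and the notes name GRCm39; the methods name another version and build, and this was not resolved. The matrices held 12245 barcodes and 38042608 UMIs after control Ab, and 15173 barcodes and 40825201 UMIs after anti-CD9 Ab.

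Following the study's limits, cells with 200 to 7500 genes and no more than 2% mitochondrial counts were kept (61% and 60.4% of barcodes). Predicted doublets (simulated neighbours, 0.8% per 1000 cells; 10.8% and 12.6% of kept cells) were kept, and an alternative left them out. Libraries were integrated by anchors and clustered in Seurat 5.3.0 on R 4.3.3 (2000 variable genes, 30 principal components, resolution 0.8). The 39 members and 62 pathway genes were left out of this step (101 genes). A cluster took a name when at least 50% of its type's markers, and at least 3, were higher than in the other cells; clusters of mostly predicted doublets, or led by another type's markers, stayed unnamed.

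Counts were summed over the cells of a type and library and scaled to that sum (CPM). Types with at least 50 cells in each library were compared. A gene entered with at least 50 UMIs over both libraries, and at least 2-fold means a log2 ratio of at least 1 or at most -1. Intervals are exact Poisson (CPM), Clopper-Pearson (shares of cells) and exact conditional binomial (log2 ratios), at 95%. A gene at 0 UMIs was set against a floor of 3 counts. For shares of cells, each cell was thinned to 1000 UMIs. The fold calls and the thinning were tested on simulated counts, and the removal of the scaled neutrophil-like profile was not. Counts were read and compared in Python 3.11.15 (pandas 2.3.3, NumPy 2.4.6, SciPy 1.17.1), doublets were scored with scikit-learn 1.9.0, and plots were drawn with Matplotlib 3.10.9.

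The members and all gene lists were chosen with earlier results of these data known. Values are printed for the 3 members with the highest CPM and the 3 highest and 3 lowest log2 ratios of each type, and by role group for the others. Named pathway genes were *Ifnb1*, *Ifnar1*, *Ifnar2*, *Stat2*, *Irf7*, *Irf9*, *Ifng* and the genes with the highest and lowest ratio of each list in microglia-like cells (some items are not reported here); *Samhd1* and the clusters singled out in the text were chosen after their values were seen. Alternatives covered the mitochondrial limit, integration, principal components, doublets, calls from marker UMIs, per-cell means, centring, the UMI minimum, thinning and, added after seeing the data, removal of the scaled neutrophil-like profile and the microglia-like clusters under other clusterings.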

Additional observations from a re-analysis of the deposited data

Results flagged for a closer look

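*Ifi35* stood on opposite sides in neutrophil-like and NK cell-like cells. The log2 ratio of its CPM (anti-CD9 Ab relative to control Ab) was 1.09 (-0.14 to 2.72) in neutrophil-like cells, from 5 and 475 UMIs, and -1.74 (-2.70 to -0.90) in NK cell-like cells, from 104 and 13 UMIs. Each type had 1 library per antibody, and the difference between them was not tested. The interval in neutrophil-like cells includes 0, and the NK cell-like cluster also held T cell markers, whose summed level was 9734 CPM after control Ab and 5906 CPM after anti-CD9 Ab.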

How the results depend on the processing

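With 1 library per antibody, no replicate could be left out, and counting intervals miss the spread between mice. No paired analysis was possible because each antibody had 1 library. Over the alternatives, the median log2 ratio of the members ranged from 0.86 to 1.04 in microglia-like cells, from 0.41 to 1.14 in macrophage-like cells, from 0.21 to 1.50 in neutrophil-like cells, from 0.16 to 0.90 in dendritic cell-like cells, from -0.13 to 0.18 in T cell-like cells and from -0.45 to 0.81 in NK cell-like cells. In all, 115 values under an alternative were counted as close to the reported ones, 31 as moved and 5 as reversed, and causes were not tested. Values counted as close could still differ in sign or size. The T cell-like median of 0.07 was -0.10 at a mitochondrial limit of 5% and -0.13 after removal of the scaled neutrophil-like profile. It was -0.03 without predicted doublets and also with calls from marker UMIs. The microglia-like count of 22 members at least 2-fold higher was 15 under each of these last alternatives.

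With cells called from marker UMIs, the median was 0.41 in macrophage-like, 1.50 in neutrophil-like, 0.90 in dendritic cell-like (9 members) and 0.81 in NK cell-like cells (4 members), and the count of members at least 2-fold higher was 9 in macrophage-like and 29 in neutrophil-like cells. At a mitochondrial limit of 5%, the median was 0.62 in macrophage-like and 0.03 in NK cell-like cells, and the neutrophil-like count was 7. Without predicted doublets, the macrophage-like median was 0.73 and the NK cell-like count 1. With 20 principal components the neutrophil-like count was 7, and with the mean of per-cell CPM the neutrophil-like median was 0.21 and the count 5. With no minimum beyond 1 UMI in each library, the NK cell-like count was 5. Without integration the macrophage cluster stayed unnamed and gave no value. The log2 ratio of the summed members in the microglia-like clusters, 1.48 in the *P2ry12*-led and 0.76 in the *Lpl*-led cluster, was 1.27 and 0.71 with 20 principal components, 1.21 and 0.97 at a mitochondrial limit of 5%, and 0.19 and 0.53 without integration.

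The difference in the share of cells with at least 5 member UMIs, in percentage points (anti-CD9 Ab minus control Ab), was 27.3 in microglia-like, 33.1 in macrophage-like, 48 in neutrophil-like, 24.6 in dendritic cell-like, 8.14 in T cell-like and -13.1 in NK cell-like cells. Thinned to 2000 UMIs, it was 37.2, 15.5, 78, 5.13 and -4.04 in the first 5 of these. The neutrophil-like value of 78 rested on only 5 cells after control Ab and 150 cells after anti-CD9 Ab. Not thinned, it was 1.61 in macrophage-like, 14.8 in neutrophil-like, -1.62 in dendritic cell-like and 20.1 in T cell-like cells. At a mitochondrial limit of 5% it was 22.4 in macrophage-like, 1.72 in T cell-like and -2.83 in NK cell-like cells. It was 23.7 in macrophage-like cells without predicted doublets, and with calls from marker UMIs 13 in macrophage-like and 2.89 in NK cell-like cells.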
